A study of Danio rerio with 8 samples.

Results

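Plasma carrier proteins bind metals, vitamins, hormones and lipids in blood and deliver them to tissues. In the adult most of them come from the liver. In a young zebrafish embryo the yolk syncytial layer, the multinucleate layer that surrounds the yolk and exports its nutrients, makes many of the proteins that the liver will later secrete. Of 10 plasma carrier genes sought by name, 8 had a row among the 36109 genes of the deposited table: tfa, cp, rbp4, ttr, apom, gc, fetub and ambp. The names hpx and apoh matched no row. The related row hpxa, for which the RefSeq gene table of assembly GRCz12tu lists hpx as a synonym, was not taken as a member, and it held 0 to 4 counts in E64d libraries and 0 to 14 in DMSO libraries.

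RNA was sequenced from whole wild-type zebrafish embryos of the AB strain. The treated group was exposed to E64d, which enters cells and blocks cysteine proteases such as cathepsins and calpains, at 3 µM between 1 and 24 hours after fertilization (hpf). The control group was kept in the solvent dimethyl sulfoxide (DMSO) over the same hours. In both groups the solvent was stated as 0.5%, the chorion had been nicked, and the AFW-PTU medium was not replaced. There were 4 pools per group with 7 embryos in each pool, so errors are those between pools. The series title places the work in the question of how yolk lipid is mobilized through Hnf4 and lipoproteins.

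Libraries held 29422983 to 37309883 counts. DMSO replicate 2 had 0.847% mitochondrial counts, against 1.72% to 1.97% in E64d libraries and 1.27% to 1.90% in the other DMSO libraries. The fits and ratios were therefore also run without it. All 16 muscle, 15 neural, 15 epidermal and hatching gland and 16 red cell markers passed the filter on low counts. The liver gene fabp10a stood at 1.07 ± 0.304 CPM in E64d and 0.850 ± 0.497 CPM in DMSO (SD, n = 4 each). Here CPM are counts scaled to a common library size with TMM factors. The gene cps1 of the liver list stood at 24.9 ± 5.30 CPM in E64d and 24.4 ± 6.87 CPM in DMSO.

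At the end of the treatment 4 of the 7 carrier genes that could be tested were lower in E64d embryos: rbp4, tfa, apom and fetub. The mean levels in E64d were 35.6% of the DMSO mean for rbp4, 46.8% for tfa, 57.9% for apom and 63.3% for fetub. No tested carrier gene was called higher, and ambp, cp and ttr did not pass. The gene gc was too low to be tested. Calls are at an adjusted p under 0.05 by the quasi-likelihood test of edgeR, with Benjamini-Hochberg adjustment across the 22163 genes tested. Of those genes, 3.85% were called lower in E64d, 2.28% higher and 6.13% in either direction (1359 genes, and 2580 with the replicate number as a block). In whole embryos, fewer cells of a type and less RNA per cell cannot be told apart.

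The median log2 fold change of the 7 carrier genes was −0.66, and that of all genes tested was 0.01. In 5 of the 7 genes all 4 E64d values lay below all 4 DMSO values, a pattern that 8.55% of all genes tested showed (14.4% in either direction). The 4 calls held in each of the 15 alternative fits, DMSO replicate 2 left out included.

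**Figure D1:**
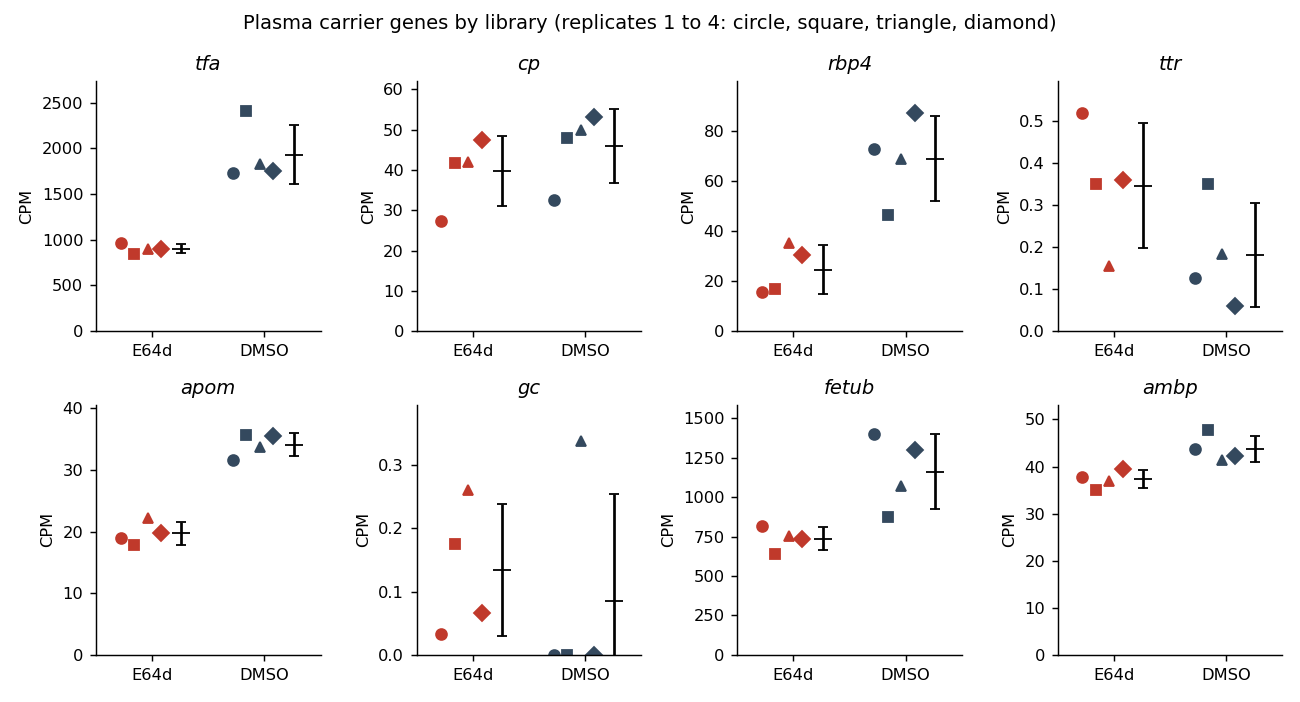
CPM of the 8 plasma carrier genes in each library, with E64d left of DMSO and 1 symbol per replicate number; the bar and whiskers give the mean and SD of 4 libraries, and the whisker of gc in DMSO stops at 0. The E64d and DMSO points are apart for tfa, rbp4, apom, fetub and ambp and overlap for cp, ttr and gc.

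Iron and copper carriers are taken first. The gene tfa encodes transferrin, which binds ferric iron in plasma and hands it to transferrin receptors on cells. It stood at 968, 842, 902 and 904 CPM in E64d replicates 1 to 4, against 1734, 2408, 1825 and 1750 CPM in DMSO replicates 1 to 4. No E64d library came near the DMSO values, and the highest value of all was that of DMSO replicate 2. The log2 fold change was −1.09 ± 0.10 (SE, adjusted p = 2.78e-05 by edgeR), and −0.97 without DMSO replicate 2. The coefficient of variation between pools was 5.68% in E64d and 16.7% in DMSO.

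The gene cp encodes ceruloplasmin, a copper-bearing oxidase that converts ferrous iron to the form transferrin binds. It stood at 27.3, 41.7, 42.1 and 47.5 CPM in E64d, against 32.5, 48.0, 49.8 and 53.1 CPM in DMSO. The groups overlapped, replicate 1 was the lowest library in each group, and each E64d library was below the DMSO library of the same number. The log2 fold change was −0.21 ± 0.17 and did not pass (adjusted p = 0.562 by edgeR). In the main fit it was −0.07 without E64d replicate 1 and −0.34 without DMSO replicate 1. With the replicate number as a block, the log2 fold change was −0.21 ± 0.07 and did not pass either (adjusted p = 0.0758 by edgeR).

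The low replicate 1 of cp had counterparts in blood and muscle markers. The summed level of 16 embryonic red cell genes was 874 CPM in E64d replicate 1 and 1877 to 1948 CPM in the other E64d libraries, and it was 860 CPM in DMSO replicate 1 and 1814 to 2291 CPM in the other DMSO libraries. The summed muscle markers were 11105 CPM in E64d replicate 1 and 12279 to 13304 CPM in the other E64d libraries. In DMSO they were 10795 CPM in replicate 1 and 12778 to 14442 CPM in the others. Replicate 1 was thus low in both groups for the summed red cell and muscle markers and for cp. Whether this bears on the cp values was not tested. None of the 16 red cell genes was called between the groups by edgeR or DESeq2. In edgeR 0 had an unadjusted p under 0.05 (the share of all genes tested is not given here). With the replicate block 2 of the 16 were called, both higher in E64d. That fit called 2580 of all 22163 genes tested, 1040 of them higher.

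Carriers of retinol and thyroid hormone come next. The gene rbp4 encodes the retinol-binding protein of plasma, a small lipocalin that takes vitamin A from its stores to tissues. It stood at 15.8, 16.8, 35.3 and 30.3 CPM in E64d, against 73.0, 46.5, 68.9 and 87.2 CPM in DMSO. The E64d values split into a lower pair (replicates 1 and 2) and a higher pair (replicates 3 and 4), and the highest of them was still below the lowest DMSO value. The log2 fold change was −1.49 ± 0.25 (adjusted p = 0.0036 by edgeR).

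The coefficient of variation of rbp4 was 39.7% in E64d and 24.5% in DMSO. Within replicate numbers the log2 difference ran from −2.21 in number 1 to −0.96 in number 3. The fall was therefore present in each number, with unequal size. In the RefSeq gene table of GRCz12tu the span of rbp4 overlaps that of fra10ac1. The counts were made on the build GRCz11, and whether the overlap holds there was not tested. If it does, reads of the overlap cannot be told apart without a stated strand setting. The gene fra10ac1 itself stood at 10.7 ± 0.345 CPM in E64d and 11.8 ± 2.26 CPM in DMSO and did not pass (log2 fold change −0.14 ± 0.14, adjusted p = 0.644 by edgeR).

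The gene ttr encodes transthyretin, which carries thyroid hormone and, in mammals, binds retinol-binding protein in plasma. At 24 hpf it was barely detected, with 16, 12, 6 and 11 counts in E64d libraries and 4, 12, 6 and 2 counts in DMSO libraries. The groups overlapped, and the log2 fold change of 0.91 ± 0.65 did not pass (adjusted p = 0.492 by edgeR). Its value depended on single libraries, from 0.63 without DMSO replicate 4 to 1.45 without DMSO replicate 2, and no difference was detected at this depth.

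Carriers of lipids and of vitamin D follow. The gene apom encodes apolipoprotein M, a lipocalin that travels on lipoproteins and binds sphingosine 1-phosphate. It stood at 19.0, 17.9, 22.3 and 19.9 CPM in E64d, against 31.6, 35.7, 33.7 and 35.5 CPM in DMSO. The groups were far apart for their spread, and DMSO replicate 2 lay with the other DMSO libraries. The log2 fold change was −0.79 ± 0.09 (adjusted p = 0.000244 by edgeR), with a range of −0.85 to −0.74 when single libraries were left out.

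The gene gc encodes the vitamin D binding protein. It had 1, 6, 10 and 2 counts in E64d libraries and 0, 0, 11 and 0 counts in DMSO libraries. It did not pass the filter on low counts, and no fold change is given. In the RefSeq table of GRCz12tu its span overlaps that of npffr2a. For 0 counts the upper limit was 0.0949 CPM in DMSO replicate 1, 0.0874 CPM in replicate 2 and 0.0914 CPM in replicate 4. These limits take 3 independent counts per library and cover counting error only. Where both mates of a pair are counted, counts are not independent and the limits are higher.

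The remaining members bind proteases or carry heme. The gene fetub encodes fetuin-B, a secreted glycoprotein with cystatin domains that inhibits an egg protease in mice. It stood at 815, 638, 753 and 734 CPM in E64d, against 1403, 875, 1069 and 1301 CPM in DMSO. The groups did not overlap, and DMSO replicate 2 was the DMSO library nearest to E64d. The log2 fold change was −0.66 ± 0.13 (adjusted p = 0.00927 by edgeR), and −0.77 without DMSO replicate 2. In the RefSeq table of GRCz12tu, which is not the build of the counts, its span overlaps a long non-coding RNA gene, as does that of cp.

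The gene ambp encodes a precursor that is cut into alpha-1-microglobulin, a lipocalin that binds heme and radicals, and bikunin, a protease inhibitor. It stood at 37.8, 35.1, 37.0 and 39.5 CPM in E64d, against 43.7, 47.7, 41.3 and 42.3 CPM in DMSO. The E64d values lay below all DMSO values, by a small margin. The log2 fold change was −0.23 ± 0.08 and did not pass (unadjusted p = 0.0129, adjusted p = 0.115 by edgeR), nor did it pass in any of the 15 alternatives (adjusted p 0.0785 to 0.315).

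**Figure D2:**
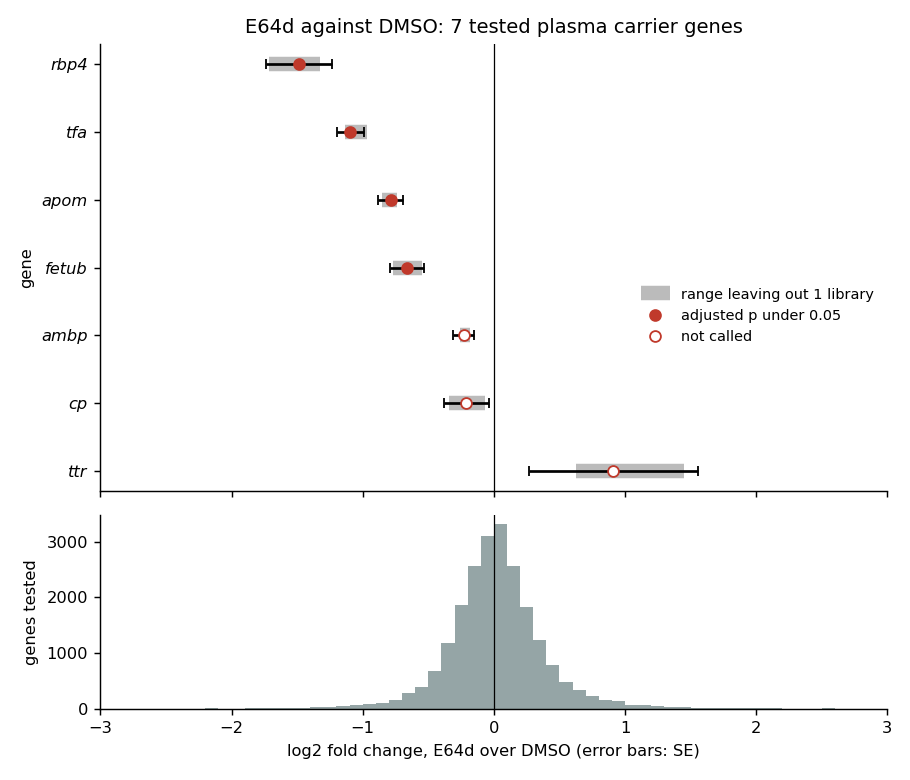
Top: log2 fold change of E64d over DMSO for the 7 tested carrier genes with SE, and in grey the range when 1 of the 8 libraries is left out. Bottom: the same quantity for all 22163 genes tested, shown from −3 to 3; rbp4, tfa, apom and fetub lie left of most of them, and ambp and cp lie within the bulk.

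The 8 carrier genes together took 0.163% to 0.193% of the counts in E64d libraries and 0.300% to 0.329% in DMSO libraries. Most of these counts were of tfa (120900 in E64d and 254351 in DMSO) and fetub (98318 and 151909). No other member had more than 9012 counts in a group, so this share says little about the rest. Compared within replicate numbers, tfa, apom, fetub, rbp4, ambp and cp were each lower in E64d in 4 of 4 numbers. For all of these but cp this follows from groups that do not overlap and is no further result. The share of all genes tested with this pattern is not given here. The log2 differences ran from −1.52 to −0.84 for tfa, from −1.0 to −0.60 for apom, from −0.83 to −0.45 for fetub, from −0.44 to −0.10 for ambp and from −0.25 to −0.16 for cp. The cp differences were thus small and alike from number to number, although its levels were not.

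**Figure D3:**
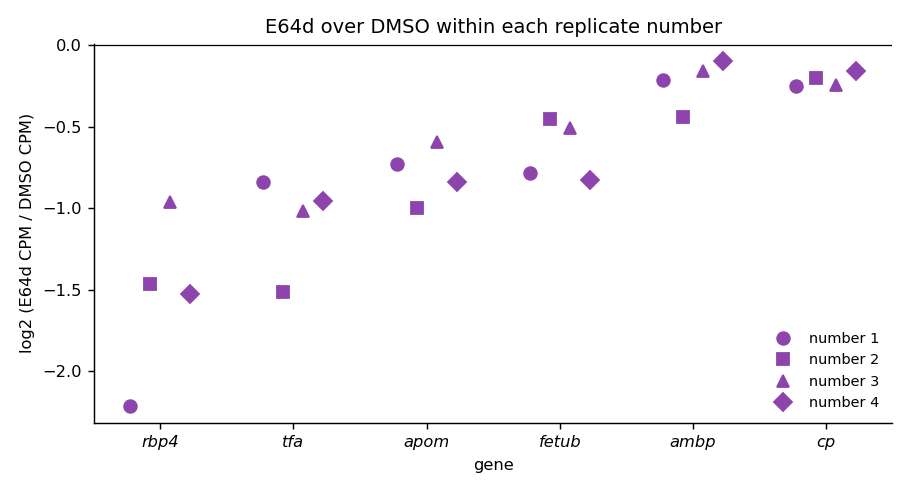
Difference between E64d and DMSO libraries of the same replicate number, as log2 of the ratio of their CPM, for the 6 carrier genes with at least 1 CPM in each library. All 24 points lie below 0, which for all genes but cp follows from groups that do not overlap. The points of rbp4 are spread most widely and those of cp least.

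Ratios of carrier genes within a library do not depend on how libraries are scaled, and they compare the size of the difference between members. The log2 ratio of cp to tfa counts averaged −4.54 ± 0.413 in E64d and −5.41 ± 0.339 in DMSO (SD, n = 4 each), a difference of 0.87 ± 0.27 (SE; 2-sided exact permutation test, p = 0.0571, adjusted p = 0.0571 over the 2 planned ratios). The groups overlapped, while each E64d library exceeded the DMSO library of its number, by 0.59, 1.31, 0.77 and 0.79 in numbers 1 to 4. The ratio of ttr to rbp4 averaged −6.18 ± 1.25 in E64d and −8.81 ± 1.42 in DMSO, a difference of 2.63 ± 0.95 (exact permutation test, p = 0.0571, adjusted p = 0.0571), and it rests on the few ttr counts. It too was higher in E64d in 4 of 4 numbers, by 4.24, 1.47, 0.72 and 4.09. A sign-flip test over 4 numbers cannot go below p = 0.125, which both ratios reached (exact test, 2-sided). A planned ratio with hpx could not be formed.

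A further 14 ratios between the 6 well-detected members were examined after the values had been seen. In 5 of them the groups did not overlap, which gives p = 0.0286, the smallest that an exact test of 4 against 4 can reach, and adjusted p = 0.08 over the 14. None passed the adjustment. Relative to ambp, tfa was lower in E64d (log2 ratio 4.60 ± 0.0677 in E64d and 5.45 ± 0.153 in DMSO, a difference of −0.85 ± 0.08). The ratio of ambp to apom was higher in E64d, at 0.92 ± 0.128, against 0.36 ± 0.101 in DMSO (difference 0.56 ± 0.08). The other 3 involve rbp4: ambp to rbp4 differed by 1.31 ± 0.36, rbp4 to cp by −1.33 ± 0.33 and rbp4 to fetub by −0.90 ± 0.31. The ratio of ambp to cp differed by −0.01 ± 0.25 and changed sign when single libraries were left out.

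Within groups the correlations between carrier genes were of both signs over the 8 libraries. Deviations from the group mean of log2 CPM correlated at 0.77 between tfa and ambp and at 0.53 between rbp4 and apom, but at −0.63 between tfa and fetub and at −0.51 between tfa and rbp4 (Pearson, across the 8 libraries, as a description). In DMSO replicate 2, tfa was the highest of the DMSO libraries while fetub and rbp4 were the lowest. Its deviations were 0.33 for tfa, −0.39 for fetub and −0.53 for rbp4, the largest in size of any library for tfa and fetub. The correlations were not computed without this library. The opposed signs may therefore rest on it, and whether the carriers vary together was not tested. All genes of a library share its depth and its scaling.

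The genes that handle the cargo of these carriers were less uniform. Of 39 tested receptors, transporters and enzymes, 3 rose and 7 fell, with a median log2 fold change of −0.02. Of all genes tested, 2.28% rose and 3.85% fell. This list and those below were chosen with earlier results of these data known. Among iron genes, tfr2, a transferrin receptor best known as an iron sensor of the mammalian liver, rose to 11.0 ± 3.16 CPM in E64d, against 4.11 ± 0.908 CPM in DMSO (log2 fold change 1.41 ± 0.23, adjusted p = 0.00253 by edgeR). The iron exporter gene slc40a1, ferroportin, fell to 60.4 ± 5.03 CPM in E64d, against 93.9 ± 14.2 CPM in DMSO (−0.64 ± 0.11). The red cell transferrin receptor gene tfr1a stood at 241 ± 59.7 CPM in E64d and 233 ± 61.3 CPM in DMSO and did not pass (adjusted p = 0.927). The ferritin gene fth1a stood at 578 ± 19.4 CPM in E64d and 598 ± 50.6 CPM in DMSO and did not pass (adjusted p = 0.77).

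Heme genes fell in 2 of 3 cases, against 3.85% of all genes tested. The gene slc48a1b, a heme transporter of endosomes and lysosomes, fell to 7.86 ± 0.913 CPM in E64d, against 14.9 ± 0.437 CPM in DMSO (log2 fold change −0.92 ± 0.12, adjusted p = 0.000428 by edgeR). The heme oxygenase gene hmox1a fell by 0.42 ± 0.09 on the log2 scale (adjusted p = 0.0117), a call that ended under library totals alone (adjusted p = 0.0506). The copper exporter gene atp7b rose to 1.94 ± 0.389 CPM in E64d, against 0.392 ± 0.166 CPM in DMSO (2.29 ± 0.38, adjusted p = 0.00325), from a level near the floor, and the 3 other copper genes did not pass.

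All 4 tested retinol genes were called, in both directions, against 6.13% of all genes tested. The cellular retinol-binding protein genes rbp5 and rbp2a both fell. Levels of rbp5 were 41.5 ± 5.36 CPM in E64d and 83.2 ± 13.2 CPM in DMSO (log2 fold change −1.0 ± 0.12). Levels of rbp2a were 6.30 ± 0.943 CPM in E64d and 16.5 ± 4.69 CPM in DMSO (−1.39 ± 0.20). The gene stra6, the receptor that takes retinol from retinol-binding protein into cells, fell by 0.42 ± 0.10 on the log2 scale (adjusted p = 0.0303 by edgeR). That call ended in 6 of 15 alternatives: under library totals alone and without E64d replicates 2, 3 or 4 or DMSO replicates 1 or 3 (adjusted p up to 0.0992). Its relative stra6l, a second receptor for retinol-binding protein, rose to 6.33 ± 0.313 CPM in E64d, against 3.07 ± 1.01 CPM in DMSO (1.05 ± 0.23, adjusted p = 0.0188). Without E64d replicate 1 or 4 that call ended as well (adjusted p up to 0.0648).

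For the other cargoes calls were made among vitamin D genes alone (of all genes tested, 3.85% were called lower and 2.28% higher). Of 5 vitamin D genes, cyp27b1, the enzyme of the final activation step, fell to 1.59 ± 0.651 CPM in E64d, against 4.73 ± 1.05 CPM in DMSO (−1.57 ± 0.30, adjusted p = 0.00854 by edgeR). Of the 5, 4 had an unadjusted p under 0.05, in both directions. The vitamin D 25-hydroxylase gene cyp2r1 had a log2 fold change of −1.06 ± 0.32 (adjusted p = 0.0744), the receptor gene vdrb 0.32 ± 0.11 (adjusted p = 0.128) and the vitamin D breakdown enzyme gene cyp24a1 0.58 ± 0.21 (adjusted p = 0.139). With the replicate block cyp2r1 and vdrb passed (adjusted p = 0.0132 and 0.0187), and with DESeq2 cyp2r1 did. None of the 7 thyroid hormone genes, the 4 tested endocytic receptor genes and the 4 sphingosine 1-phosphate genes passed in edgeR. At an unadjusted p under 0.05 there were 0 thyroid hormone, 0 endocytic receptor and 1 sphingosine 1-phosphate gene. The share of all genes tested under that unadjusted p is not given here. These counts and that of the vitamin D genes therefore have no background to be read against.

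**Figure D4:**
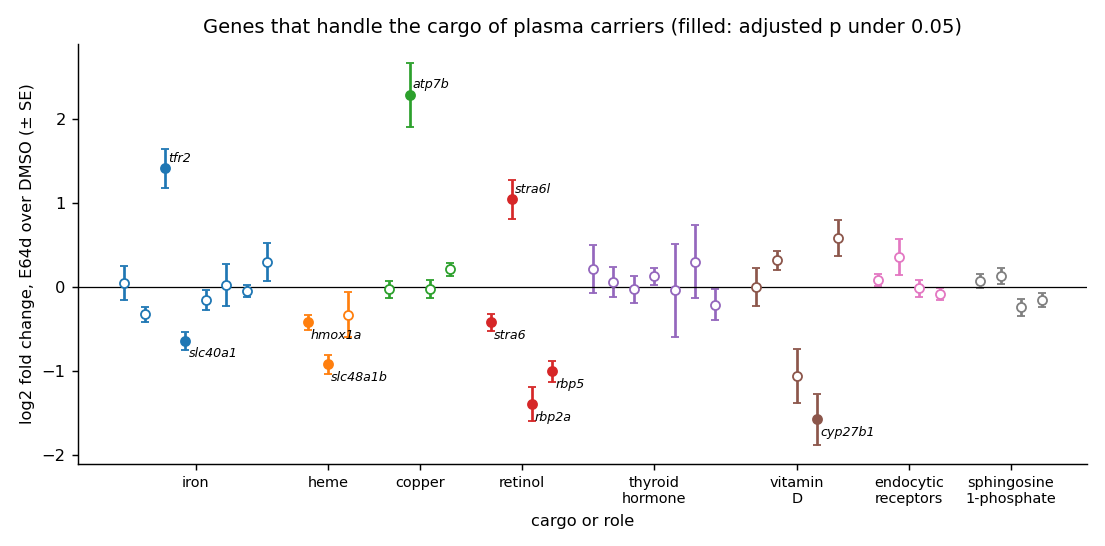
Log2 fold change of E64d over DMSO with SE for 39 genes that take up, load or use the cargo of plasma carriers, grouped by cargo; filled points passed at an adjusted p under 0.05. Retinol genes passed in 4 of 4 cases (1 higher, 3 lower), and thyroid hormone, endocytic receptor and sphingosine 1-phosphate genes in none.

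Other secreted carriers and plasma proteins were lower more often than higher. Of 16 tested genes, 8 fell and 1 rose, with a median log2 fold change of −0.59 (of all genes tested, 3.85% fell and 2.28% rose). The selenium carrier gene selenop fell to 183 ± 40.8 CPM in E64d, against 669 ± 27.2 CPM in DMSO (−1.87 ± 0.13, adjusted p = 2.86e-06 by edgeR). The protease scavenger gene a2ml fell to 86.8 ± 17.1 CPM in E64d, against 193 ± 32.8 CPM in DMSO (−1.15 ± 0.15). The gene igfbp1a, which binds insulin-like growth factors, rose to 15.6 ± 3.18 CPM in E64d, against 6.36 ± 0.984 CPM in DMSO (1.29 ± 0.17). Closest in name to a member, rbp4l stood at 14 to 40 counts in E64d libraries and 57 to 87 in DMSO libraries (−1.41 ± 0.34, adjusted p = 0.0289). That call ended without E64d replicates 1, 3 or 4 or DMSO replicates 2 or 4 (adjusted p up to 0.0773).

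Marker lists of the tissues that secrete plasma proteins held genes in both directions. Of 20 tested genes known from the yolk syncytial layer, 8 fell and 1 rose, with a median of −0.32. Of all genes tested, 3.85% fell and 2.28% rose. With the replicate block 14 of the 20 were called, against 2580 of all 22163 genes tested. The summed level of the yolk syncytial layer list was 12095 to 14684 CPM in E64d and 16681 to 19011 CPM in DMSO, without overlap. No matched gene of it was at 0 in all libraries. The list shares 3 genes with the other lists. Its largest member, the apolipoprotein B gene apobb.1, took 5964 to 8193 CPM of the sum in E64d and 7600 to 10003 CPM in DMSO and did not pass (adjusted p = 0.14 by edgeR, and 0.00377 with the replicate block). Without apobb.1 the list summed to 6130.5 to 6573 CPM in E64d and 8664 to 9081 CPM in DMSO, without overlap. Without the 8 genes that fell, the sum of the other 15 was 7266 to 9514 CPM in E64d and 8971 to 11284 CPM in DMSO, and the groups overlapped. As the 8 were picked by these same values, that overlap does not test the list. Within this list the lipid transfer gene mttp fell by 2.86 ± 0.12 on the log2 scale, while gata6, a transcription factor of the endoderm, rose by 0.41 ± 0.09 (adjusted p = 0.0175 by edgeR). The call of gata6 ended without E64d replicates 1 or 2 or DMSO replicate 3 (adjusted p up to 0.0609). The part of tissue amount in the carrier values was not tested.

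Of 21 tested hepatoblast and liver genes, 6 fell and 1 rose, with a median of 0.13 (of all genes tested, 3.85% fell and 2.28% rose). Those that fell encode secreted proteins: the fibrinogen chains fga, fgb and fgg, prothrombin (f2), antithrombin (serpinc1) and apolipoprotein A-II (apoa2). The list's gene fabp10a stood at 1.07 ± 0.304 CPM in E64d and 0.850 ± 0.497 CPM in DMSO. Its gene cps1 stood at 24.9 ± 5.30 CPM in E64d and 24.4 ± 6.87 CPM in DMSO. The tissue that the reads of this list come from was not tested, for the secreted proteins or for the regulators below. The fall was 0.57 ± 0.10 log2 units for f2 and 0.67 ± 0.09 log2 units for serpinc1. The regulator genes hhex, prox1a, foxa1, foxa2 and onecut1 did not pass (prox1a, with a log2 fold change of 0.26, passed under library totals alone, DESeq2 and the replicate block), and foxa3 rose by 0.44 ± 0.12 (adjusted p = 0.0425 by edgeR), a call that ended in 7 of 15 alternatives (limma-voom, and without E64d replicates 1, 2 or 4 or DMSO replicates 1, 2 or 3, with adjusted p up to 0.135). The list's summed level was 1316 to 1472 CPM in E64d and 1647 to 1743 CPM in DMSO, without overlap and with no matched gene at 0 in all libraries. The 6 genes that fell, a set picked by these same values, summed to 1098 to 1257 CPM in E64d and 1465 to 1544 CPM in DMSO. The gene apoa2 alone held 795 to 942 CPM in E64d and 977 to 1072 CPM in DMSO, and its call ended in 6 of 15 alternatives (library totals alone, and without E64d replicates 1, 2 or 4 or DMSO replicates 3 or 4, with adjusted p up to 0.127). Without apoa2 the list summed to 504 to 541 CPM in E64d and 625 to 695 CPM in DMSO, without overlap. The 16 genes outside those 6 summed to 216 to 232 CPM in E64d and 166 to 210 CPM in DMSO, higher in E64d without overlap. Of the 15 tested among them, 13 had a log2 fold change above 0. As the split followed the calls, these sums do not test a difference between its parts. The summed levels of the muscle, neural, epidermal and red cell lists overlapped between the groups. A single keratin gene made up most of the epidermal sum. In the main fit 1 of 15 epidermal and 1 of 15 neural genes was called, both lower in E64d, and 0 muscle and 0 red cell genes. With the replicate block 5 epidermal, 3 neural, 2 red cell and 1 muscle gene were called, against 2580 of all 22163 genes tested.

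**Figure D5:**
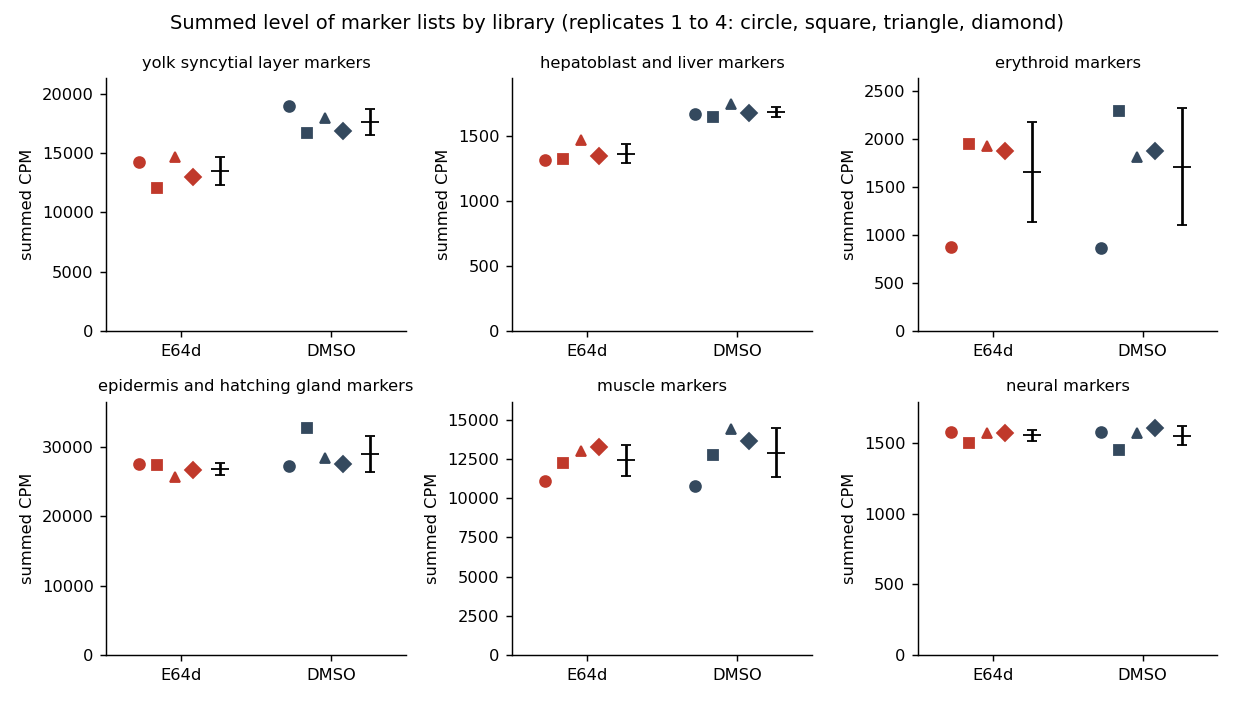
Summed CPM of 6 marker lists in each library, with E64d left of DMSO, 1 symbol per replicate number, and mean and SD of 4 libraries. The groups are apart for the yolk syncytial layer and liver lists. A few abundant genes such as apobb.1 and apoa2 make up most of those sums. Without apobb.1 or apoa2 the sums stay apart. The groups overlap for the other 4 lists, and replicate 1 is the lowest library for red cell and muscle genes in both groups.

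The genes whose levels followed the carriers most closely were found by the correlation of log2 CPM with the mean of the 7 tested carrier genes, each centred and scaled over the 8 libraries. Among 11183 genes with a mean of at least 10 CPM, the 5 closest were zgc:153018, tcirg1b, nr0b2a, slc48a1b and ces2, with Pearson's r from 0.984 to 0.990. All were lower in E64d, as the split between the groups dominates this measure. The gene nr0b2a, which encodes a nuclear receptor that represses bile acid synthesis in mammals, stood at 30.2 ± 2.73 CPM in E64d and 92.9 ± 11.1 CPM in DMSO. The carboxylesterase gene ces2 stood at 66.3 ± 6.30 CPM in E64d and 170 ± 7.85 CPM in DMSO.

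After centring within each group, so that the treatment no longer counts, the 5 closest were ces2, rab25a, sfxn2, zeb1b and rtn4ip1, with r from 0.935 to 0.959. Of these only ces2 was also among the 5 closest before centring. With 8 libraries and 11183 genes, correlations of this size are a description of these libraries.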

How the data were processed

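The values deposited by the authors are unnormalized counts of reads per gene. The submitters' processing notes name featureCounts 2.0.6, STAR 2.7.10b, Trim Galore 0.6.10 and FastQC 0.12.1, and the build GRCz11. The sources used here do not give the annotation, the strand setting or the handling of multi-mapping reads. Columns were matched to samples by the names in the labels, and 6 unnamed columns were not used. Of counts from 1 to 20, 75.9% to 80.7% were even in each library, as where both mates of a pair are counted, so tests were repeated on counts divided by 2 and rounded up.

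The test was the quasi-likelihood F-test of edgeR 4.0.16 in R 4.3.3, after filterByExpr and TMM scaling. CPM values are counts over the TMM-adjusted total. Standard errors were derived from the test statistic. DESeq2 1.42.0 and limma-voom (limma 3.58.1) were alternatives, beside other scalings, no filter, the replicate block and leaving out each library. In simulated E64d against DMSO data with 22208 genes, edgeR called 12% of the 50 genes given a 1.5-fold change, 80% of those given 2-fold and 100% of those given 4-fold. Of its calls, 2.67% were false. All genes were simulated with a common biological coefficient of variation of 20.0% and without pairing, so these rates need not hold for genes that vary more or less. Ratios were tested by exact permutation.

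Same-numbered libraries deviated together (r of 0.122 to 0.413 across genes; other pairs −0.239 to 0.089), so by the rule that all 4 exceed 0.1 the numbers were taken to pair libraries. What a number marks is not stated in the labels. The main test leaves the pairing out. The members and lists were chosen with earlier results of these data known. Lists were matched by name; 42 of 45 cargo genes, 23 of 30 other plasma genes, 23 of 24 yolk syncytial layer genes and 22 of 23 liver genes had a row. Genes outside the members were named by p within each list (up to 2 each way) or by likeness to the members. Named after their values were seen were slc40a1, tfr1a, fth1a, hmox1a, stra6, stra6l, rbp2a, cyp27b1, cyp2r1, vdrb, cyp24a1, apobb.1 and rbp4l. So were fra10ac1, npffr2a, hpxa, fabp10a, cps1 and the liver genes given without values. Gene lengths were not used, so levels are compared between groups, not between genes. No sequence is shown.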

Additional observations from a re-analysis of the deposited data

Results flagged for a closer look

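In 38 groups of 4 libraries (levels of the 8 carrier genes, summed marker and gene lists, 2 ratios and the mitochondrial share), 5 held a library far from the other 3 by Dixon's ratio, a test that chance alone trips in about 1 of 20 groups. For tfa, DMSO replicate 2 stood at 2408 CPM and the other DMSO libraries at 1734 to 1825 CPM. For gc, DMSO replicate 3 stood at 0.338 CPM (11 counts) and the other 3 at 0. With 3 libraries at 0 any level above 0 is flagged, so the rate of 1 of 20 does not hold for gc. The summed liver markers were 1472 CPM in E64d replicate 3 and 1316 to 1343 CPM in the other E64d libraries. The summed red cell markers were 874 CPM in E64d replicate 1 and 1877 to 1948 CPM in the others. The summed neural markers were 1497 CPM in E64d replicate 2 and 1570 to 1575 CPM in the others.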

How the results depend on the processing

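The calls of rbp4, tfa, apom and fetub held in all 15 alternatives, with log2 fold changes of −1.72 to −1.33, −1.14 to −0.97, −0.85 to −0.70 and −0.77 to −0.55. Those of ambp, cp and ttr were absent in each alternative that tested them. The replicate block changed no call of a carrier gene. Of the 27 called genes named outside the members, 20 kept their call in every alternative that gave a value (DESeq2 gave none for atp7b); the exceptions were hmox1a, stra6, stra6l, rbp4l, gata6, apoa2 and foxa3. Of 13 genes outside the members that are reported as not passing, 4 were called under at least 1 alternative (prox1a, cyp2r1, vdrb and apobb.1). Over all genes, DESeq2 called 2207 (854 higher, 1353 lower) and the replicate block 2580 (1040 higher, 1540 lower). Under library totals alone 803 were higher and 498 lower, so that 61.7% of the calls were higher in place of 37.2%. That setting leaves out the TMM factors, which were 1.025 to 1.036 in E64d libraries and 0.928 to 0.993 in DMSO libraries. The median log2 fold change of all genes was 0.096 under it and 0.011 in the main fit. Leaving out single libraries gave 655 to 1396 genes, 288 to 560 higher and 367 to 836 lower; the count was 834, 845, 854 and 655 without E64d replicates 1 to 4 and 835 without DMSO replicate 3. Fewer samples were tested there; the cause of the other shifts was not tested. Neither planned ratio passed under any alternative. An exact permutation test of 3 against 4 libraries cannot go below p = 0.0571, nor can the exact sign-flip test of the replicate block below 0.125. Differences near 0 changed sign: ambp to cp was 0.05, 0.03 and 0.06 without E64d replicates 2, 3 and 4 and 0.15 without DMSO replicate 1 (range −0.19 to 0.15), and apom to fetub was 0.0028 without DMSO replicate 2 (range −0.28 to 0.0028). Counting limits ttr and gc: at under 20 counts a library, no difference of theirs was detected.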
